A study of Mus musculus with 2 samples.

Results

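Creatine lets a cell store and move high-energy phosphate, and the 5 genes described here make it, import it or charge it: Gatm, Gamt, Slc6a8, Ckb and Ckmt1. They were taken as a set of 5 genes out of the 28692 in the deposited count tables. Their levels across cell types, their levels in knockout against control cells, and a higher Gatm count in knockout fibroblasts were known when they were chosen, so all of these are given as a description and none was tested. The cells came from the stromal vascular fraction (SVF) of gonadal white adipose tissue (gWAT), the pelleted stromal, vascular and immune cells left when collagenase-digested fat is spun. There was 1 library from Adipo-Pgam1 KO mice and 1 from littermate controls. The KO mice carry Adipoq-Cre and floxed Pgam1 alleles, and the controls, called littermate wildtype in the labels, are Pgam1 flox/flox without Cre in the study's methods. All mice were C57BL/6 males of 13 weeks, and the number of mice behind a library is not given in the sources used here. The Adipoq promoter drives Cre in adipocytes, and mature adipocytes float and are largely lost from this fraction.

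Creatine is made in a pair of steps. GATM moves the amidino group of arginine onto glycine, giving guanidinoacetate and ornithine, and GAMT methylates guanidinoacetate with S-adenosylmethionine. SLC6A8 carries creatine into cells, CKB is the cytosolic brain-type creatine kinase, and CKMT1 is the ubiquitous mitochondrial one. In thermogenic fat, phosphocreatine can be made and hydrolysed in a cycle that turns over ATP and releases heat, and the phosphatase TNAP, encoded by Alpl, has been placed in that cycle.

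The genes lie at separate places on 4 mouse chromosomes (GRCm38, GENCODE M21). Gatm (ENSMUSG00000027199) is on the minus strand of chromosome 2, from 122594467 to 122611303, and Ckmt1 (ENSMUSG00000000308) is on the plus strand of the same chromosome, from 121357714 to 121363737. Gamt (ENSMUSG00000020150) is on chromosome 10 from 80258151 to 80261012, Ckb (ENSMUSG00000001270) on chromosome 12 from 111669361 to 111672338, and Slc6a8 (ENSMUSG00000019558) on chromosome X from 73673150 to 73682502. No other annotated gene overlaps them, except that Strc overlaps Ckmt1 on the opposite strand; whether counting used the strand is not given in the sources used here, so reads from the overlap cannot be told apart. The 250 bases before the RefSeq starts of Gatm and Ckb are shown because most of the results concern these genes. They are RefSeq sequences of GRCm38.p6, read 5′ to 3′ on the minus strand, at chr2:122611278-122611527 for Gatm and chr12:111672339-111672588 for Ckb. The RefSeq start of Gatm lies inside the GENCODE gene, so the last 26 bases of its window belong to that gene model, and positions are counted from the RefSeq starts. Capitals mark the letters TATAAA and CCAAT on either strand, the cores of the TATA box and the CCAAT box.
Gatm: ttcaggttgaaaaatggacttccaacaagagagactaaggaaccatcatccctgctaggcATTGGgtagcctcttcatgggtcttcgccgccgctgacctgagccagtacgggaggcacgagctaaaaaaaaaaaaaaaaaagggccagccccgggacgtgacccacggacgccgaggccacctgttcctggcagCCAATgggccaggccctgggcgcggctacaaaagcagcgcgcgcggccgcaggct
Ckb: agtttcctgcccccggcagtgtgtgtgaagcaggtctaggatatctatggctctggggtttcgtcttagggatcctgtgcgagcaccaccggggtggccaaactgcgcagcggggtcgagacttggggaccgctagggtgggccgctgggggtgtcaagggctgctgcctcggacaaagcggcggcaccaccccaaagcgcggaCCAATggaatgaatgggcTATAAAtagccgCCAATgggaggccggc
The Ckb window holds TATAAA 28 bases before the start and CCAAT at -46 and -16. The Gatm window holds CCAAT at -190 (on the opposite strand) and -55, and no TATAAA. Of all 32851 RefSeq windows of this length, 12.4% hold TATAAA and 33.8% hold CCAAT. A window was found for 4 of the 5 genes, and none for Slc6a8.

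The unique molecular identifier (UMI) count of a gene is its number of captured 3′ transcript ends. The control library held 8522 barcodes with 42859406 UMIs, and the KO library 2730 with 13821581. After filtering, 3616 control and 937 KO cells were left, with median depths of 6898 and 7494 UMIs, and no barcode was shared between them. They formed 25 clusters, of which 17 were given a class name by the marker rule, in 11 classes. Levels are counts per 1000000 UMIs of the class (CPM), and intervals are exact 95% intervals for counting error alone. Since each genotype had a single library, a genotype difference cannot be told apart from a difference between libraries, and no p-value was computed. Over all kept cells the targeted gene Pgam1 stood at 110 CPM in control cells and 116 CPM in KO cells. Fibroblast-like cells held 1075 and 340 Pgam1 UMIs, with -0.01 as the log2 of KO over control (-0.20 to 0.16). The part of Pgam1 that Cre removes is not given in the sources used here, so 3′ counts need not report the deletion. Adipoq, whose promoter drives Cre, had 3 control and 2 KO UMIs in fibroblast-like cells. In its own clustering of these cells, the paper describes markedly lower Pgam1 in a KO fibroblast cluster rich in adipocyte markers. Its clusters may differ from those here, and the reason for the unchanged counts was not tested.

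Over all kept cells, none of the 4 members with at least 50 UMIs there was past 2-fold in either direction, where 2.48% of all genes were 2-fold or more higher in KO cells and 2.02% were 2-fold or more lower. The log2 ratios were 0.43 for Gatm (0.28 to 0.58), 0.26 for Ckb (0.19 to 0.33), 0.09 for Slc6a8 (-0.12 to 0.30) and 0.08 for Gamt (-0.21 to 0.36), with a median over all genes of -0.07. Levels differed far more between classes than between libraries in these pooled ratios, which average over differences within classes. Gatm in fibroblast-like cells, described below, was 10.8-fold higher in the KO library. The 5 genes were spread over different classes.

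**Figure D1:**
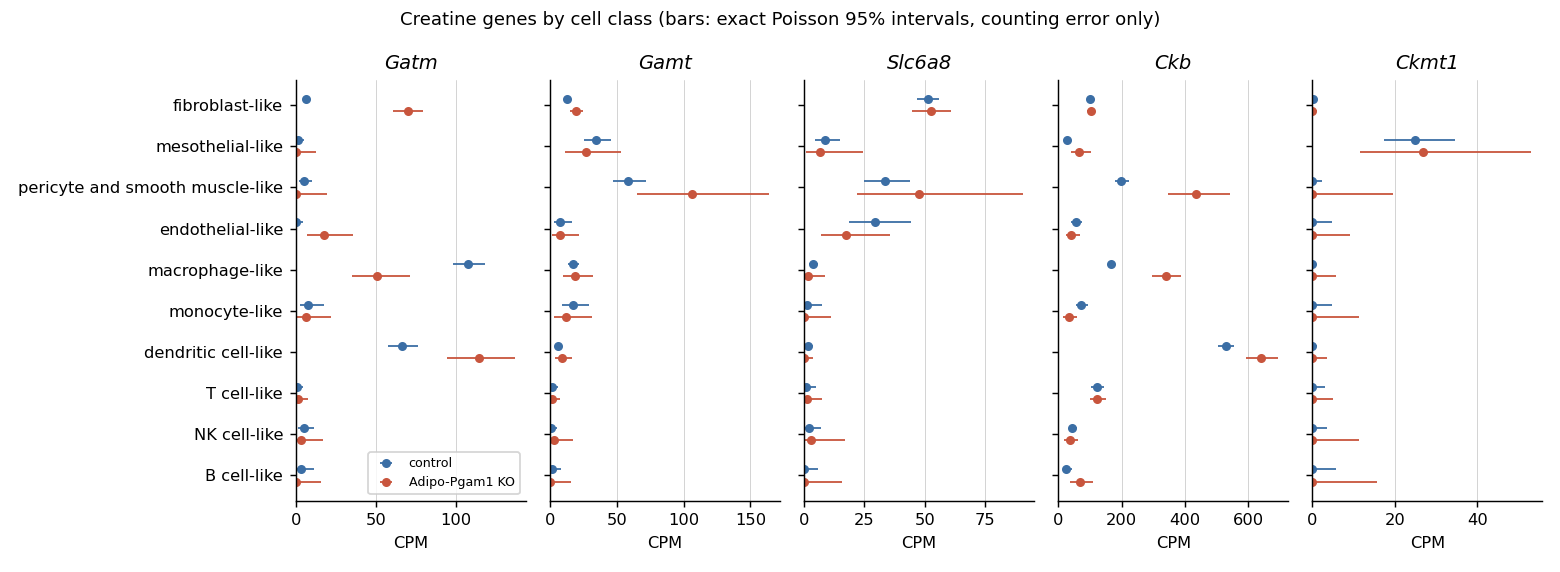
Level of each gene (CPM, linear axis, a scale for each gene) in the 10 cell classes with at least 20 cells in each library, control in blue and Adipo-Pgam1 KO in red, with exact Poisson 95% intervals. Gatm is high in macrophage-like and dendritic cell-like cells of both libraries and, in the KO library alone, in fibroblast-like cells, and Ckmt1 has counts almost only in mesothelial-like cells.

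Gatm, the first enzyme of creatine synthesis, had its highest control level in macrophage-like cells, at 108 CPM, followed by dendritic cell-like cells at 66.4 CPM. The intervals of these classes did not overlap each other or those of any class below. Monocyte-like cells were at 7.97 CPM and fibroblast-like cells at 6.46 CPM, and the control intervals of all classes from monocyte-like down overlapped their neighbours. T, B and NK cell-like cells together held 8 Gatm UMIs in 617 control cells and 2 in 205 KO cells. They serve here as a rough guide to free RNA, on the untested assumption that these cells lack the enzyme. In the KO library the order was dendritic cell-like at 114 CPM, fibroblast-like at 69.8 CPM and macrophage-like at 50.9 CPM, where the last pair overlapped. Fibroblast-like cells held 5.39% of the control library's Gatm UMIs and 44.2% of those in the KO library.

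Fibroblast-like cells gave 64 Gatm UMIs from 900 control cells and 221 from 238 KO cells. This was 6.46 CPM (4.97 to 8.24) against 69.8 CPM (60.9 to 79.6), a log2 ratio of 3.43 (3.03 to 3.86). Of 10634 genes with at least 50 UMIs in these cells, 8 had a higher ratio; 1.41% were higher by 2-fold or more and 1.74% lower by as much. Among the members, 4 of 5 were measured at this depth, and Gatm was the 1 past 2-fold; since it was chosen for this value, nothing is read from that count. A Gatm UMI was found in 4.44% of control cells (3.19 to 6.00) and in 13.0% of KO cells (9.02 to 18.0), at median depths of 11624 and 14426 UMIs. Thinning every cell to 2000 UMIs gave shares of 1.11% of 809 and 7.04% of 213 cells, and 91 and 25 shallower cells were left out. The lymphocyte shares were 0.810% and 0.976%, at median depths between 3983 and 6224 UMIs, and 0.338% and 0% after thinning; 0 of 193 cells allows a share of up to 1.55%.

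The KO counts came mostly from a few cells. The 10 cells with the most Gatm held 33 of the 64 control UMIs, or 51.6%, and 181 of the 221 KO UMIs, or 81.9%. Since 10 cells are a larger part of the 238 KO cells than of the 900 control cells, these shares are not directly comparable. The highest control cell had 8 Gatm UMIs among 17661. In the KO library 8 cells had 10 or more, with 55, 33, 19, 17, 14, 13, 11 and 10 UMIs, and no control cell reached 10. These 8 cells held 172 UMIs, or 77.8% of the KO count. Without the 10 highest cells of each library, 31 control and 40 KO UMIs were left and the log2 ratio was 2.09 (1.38 to 2.81). That step also took out a larger part of the KO cells than of the control cells. When every cell had the same weight it was 2.68, and with cells classed by their own markers and no clusters, 2.40 (2.07 to 2.73).

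**Figure D2:**
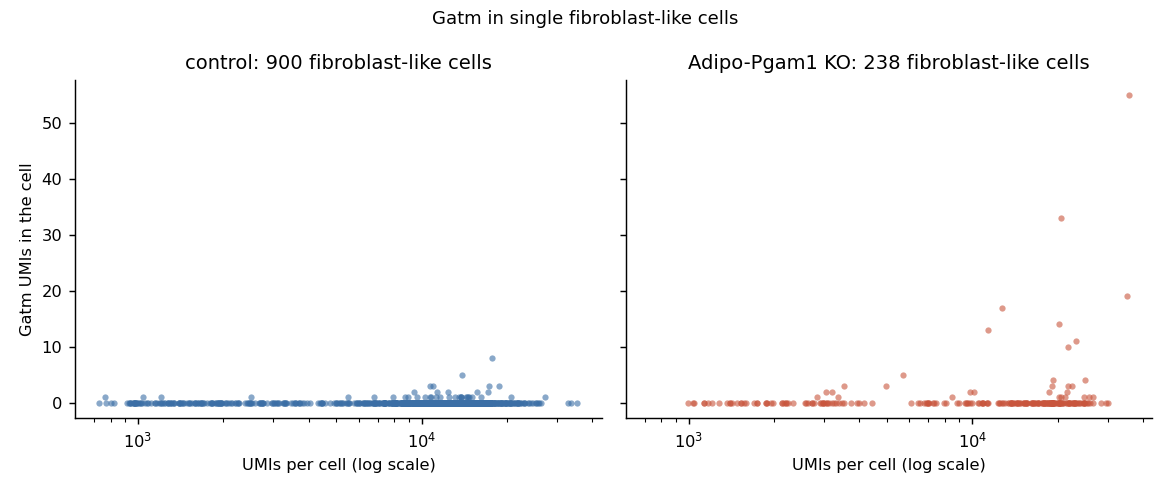
Gatm UMIs (y axis) against all UMIs (x axis, log scale) in each fibroblast-like cell, control at left and Adipo-Pgam1 KO at right. Most cells sit at 0 in both libraries, no control cell is above 8, and 8 KO cells are at 10 or more, the highest at 55.

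Markers of other cell types were counted in the fibroblast-like cells. The 10 macrophage markers summed to 71.3 CPM in the control and 35.4 CPM in the KO cells, where Adgre1 and Cd163 were at 0. The dendritic cell markers summed to 20.98 CPM in the control and 12.63 CPM in the KO cells. The lymphatic endothelial markers summed to 8.07 CPM in the control and 37.9 CPM in the KO cells, and no cell of either library held 3 or more of them. Whether macrophage, dendritic or lymphatic endothelial cell RNA added to the Gatm counts was not tested. The 6 Schwann cell markers summed to 9.58 CPM in the control, with Sox10 at 0, and to 140 CPM in the KO cells. That KO sum came with 7 cells holding at least 3 of these markers. No such cell was among the 900 control fibroblast-like cells, and over all kept cells the control library held 1 and the KO library 8. The 7 cells held 26 of the 221 Gatm UMIs (562 CPM), including the cell with 13, and 30 Ckb UMIs (649 CPM). Without them the Gatm log2 ratio was 3.27 (2.86 to 3.71), from 64 and 195 UMIs. With only cells that held at least 3 of the 8 fibroblast markers and no UMI of a macrophage or Schwann cell marker, a choice made after seeing the data, 22 control and 152 KO UMIs gave 4.09 (3.44 to 4.81). The 9 stress genes were also higher in the KO cells, with a median log2 ratio of 0.58, and their part in the Gatm value was not tested.

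The other 7 cells with at least 10 Gatm UMIs all belonged to the same fibroblast-like cluster and each held 8 of the 8 fibroblast markers, no Schwann cell marker and at most 1 of the 10 macrophage markers. They were compared with the other 110 KO cells of that cluster after their values were seen. Their Gatm level was 940 CPM against 18.4 CPM. Apoe, which encodes a lipid-carrying apolipoprotein, was at 3117 CPM against 903 CPM, and Pgam1 at 118 CPM against 114 CPM. A higher Apoe level was not particular to these cells, as the control cells of this cluster were at 428 CPM. Over all fibroblast-like cells Apoe was at 370 CPM in the control and 1082 CPM in the KO library. In the cluster led by Pi16 it was at 250 and 1094 CPM. For the rest of the creatine genes, Slc6a8 was at 88.7 CPM against 61.9 CPM, Gamt at 29.6 CPM (5 UMIs) against 20.6 CPM, and Ckb at 35.5 CPM (6 UMIs) against 61.4 CPM. Of the study's 11 beige fat markers, Ucp1, Cidea, Tbx1, Tnfrsf9, Kcnk3 and Egln3 had no UMI in either set of cells. Ppargc1a, a coactivator of mitochondrial genes, had 3 UMIs against 10 (17.7 CPM against 5.58 CPM). Mtus1 had 6 against 55 (35.5 CPM against 30.7 CPM). Prdm16, Tmem26 and Cpt1b had none in the 7 cells, and 7, 2 and 1 UMIs in the others. Fndc5 was also higher in these 7 cells and was found in all 7 (242 CPM against 43.0 CPM). So were Mmd2 and Hpca, each found in 6 of 7, and Dkk2, found in 3 of 7 (136 CPM against 3.35 CPM). Fndc5, Mmd2 and Hpca were, however, leading genes of a whole sub-cluster described below, control cells included. Fndc5 was at 92.9 CPM there in control and 113 CPM in KO cells, and Mmd2 at 54.7 and 41.2 CPM.

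The Gatm difference lay in 1 fibroblast-like cluster once the Schwann-marked cells were set aside. In the cluster led by Fam150b, Bmper and Cxcl14 (503 control and 117 KO cells) Gatm had 59 and 192 UMIs, or 9.71 and 97.9 CPM, with a log2 ratio of 3.33 (2.91 to 3.78). In the cluster led by Pi16, a gene of adipose progenitors (283 and 71 cells), it had 1 and 28 UMIs, with a log2 ratio of 6.53 (3.93 to 11.9), but all 7 Schwann-marked cells were in this cluster. Without them it had 1 and 2 UMIs, too few for a ratio. In the third, shallow cluster, led by Timp1 and Mt2 with a median of 1688 UMIs, it had 4 and 1 UMIs. The fibroblast-like cells were then clustered again, without any of the 5 genes among the clustering genes. One sub-cluster of 166 control and 58 KO cells, led by Mmd2, Apln, Slc17a7 and Fndc5 and with Gatm itself among its leading genes, held 51 of the 64 control and 190 of the 221 KO UMIs. Gatm was at 22.9 CPM there in the control (17.0 to 30.1) and at 196 CPM in the KO library (169 to 225), a log2 ratio of 3.10 (2.64 to 3.57), while Mmd2 was at 54.7 and 41.2 CPM. The 4 other deep sub-clusters with cells of both libraries had between 0 and 7 control and between 0 and 2 KO Gatm UMIs each. A shallow one, led by H2-Aa and Hrsp12, had 4 and 1 UMIs, at 21.8 and 8.28 CPM. The remaining sub-cluster was made of the 7 Schwann-marked KO cells.

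**Figure D3:**
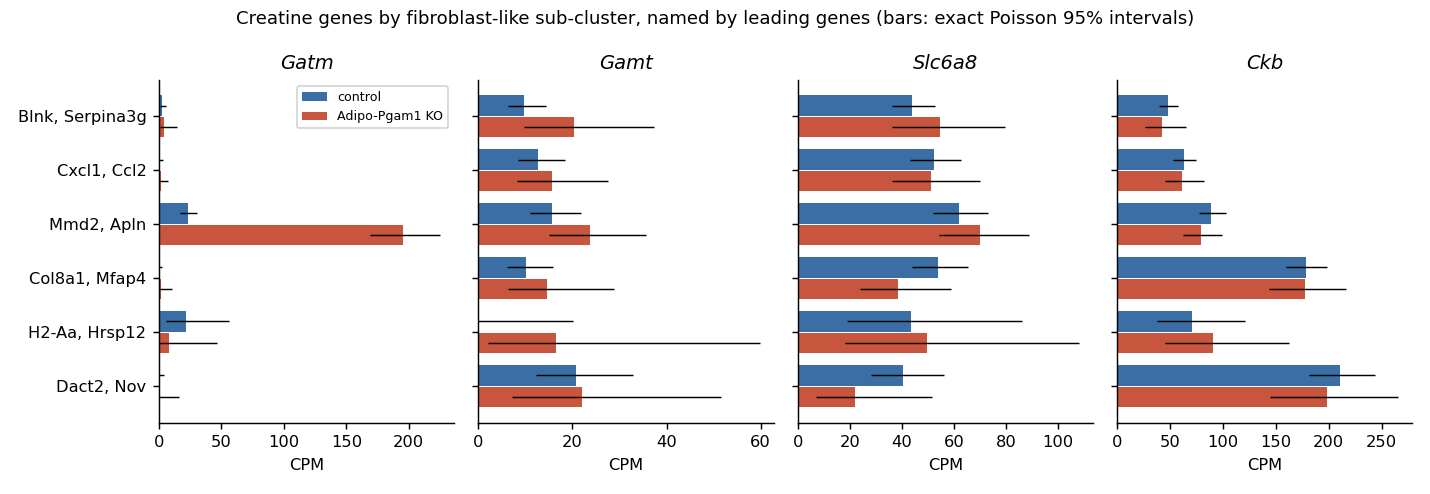
Level (CPM, linear axis from 0) of 4 creatine genes in the 6 fibroblast-like sub-clusters that held cells of both libraries, each named by leading genes, control in blue and Adipo-Pgam1 KO in red, with exact Poisson 95% intervals. Gatm stands out in the Mmd2 and Apln sub-cluster, at 22.9 CPM in the control and 196 CPM in the KO library, while Ckb is highest in the Dact2 and Nov sub-cluster of both.

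In myeloid cells the Gatm counts moved in different directions. Macrophage-like cells had 476 control and 33 KO UMIs, a log2 ratio of -1.08 (-1.64 to -0.57), which made Gatm the 1 member at least 2-fold lower in a class where 7.52% of genes were. Different clusters held most of these cells: 320 of 455 control cells were in the cluster led by Cd209f, Fcna and Folr2, but 28 of 46 KO cells were in the one led by Lyz1. Within the first, Gatm was at 188 and 133 CPM (log2 ratio -0.50, -1.15 to 0.08), and within the second at 21.2 and 17.4 CPM (-0.28, -1.58 to 0.82). An unnamed cluster led by Mmp12, Ccl12 and Il1rn, with 9 of the 10 macrophage markers, was at 160 and 169 CPM (0.08, -0.29 to 0.44). None of these 3 clusters was past 2-fold. With all variable genes in the clustering, the class ratio was -0.24 (-0.53 to 0.05), from 772 and 116 UMIs.

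Dendritic cell-like cells had 213 control and 117 KO Gatm UMIs, with a log2 ratio of 0.78 (0.44 to 1.11) that did not reach 2-fold, beside 1.04% of genes there that were higher by 2-fold or more and 3.04% that were lower. In the cluster led by Ccl22 and Ccl17 Gatm was at 44.7 and 95.7 CPM (1.10, 0.59 to 1.59). In the one led by Xcr1 and Clec9a, genes of cross-presenting dendritic cells, it was at 119 and 137 CPM (0.21, -0.26 to 0.66). The mix of these clusters differed, since 72 of the 260 control cells in this class belonged to the Xcr1 cluster, against 26 of 64 from the KO library. Under a stricter cell filter, which kept cells with 1000 or more genes and no more than 5% of UMIs from mitochondrial genes, the class ratio was 0.03 (-0.44 to 0.47). Endothelial-like cells had no Gatm UMI in 151 control cells, which allows a level of up to 3.84 CPM, and 7 UMIs in 3 of 60 KO cells. Against a floor of 3 control UMIs the KO level was at least 4.52-fold higher, which leaves out the counting error of the 7 KO UMIs, and the exact lower limit of the log2 ratio was 1.48.

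**Figure D4:**
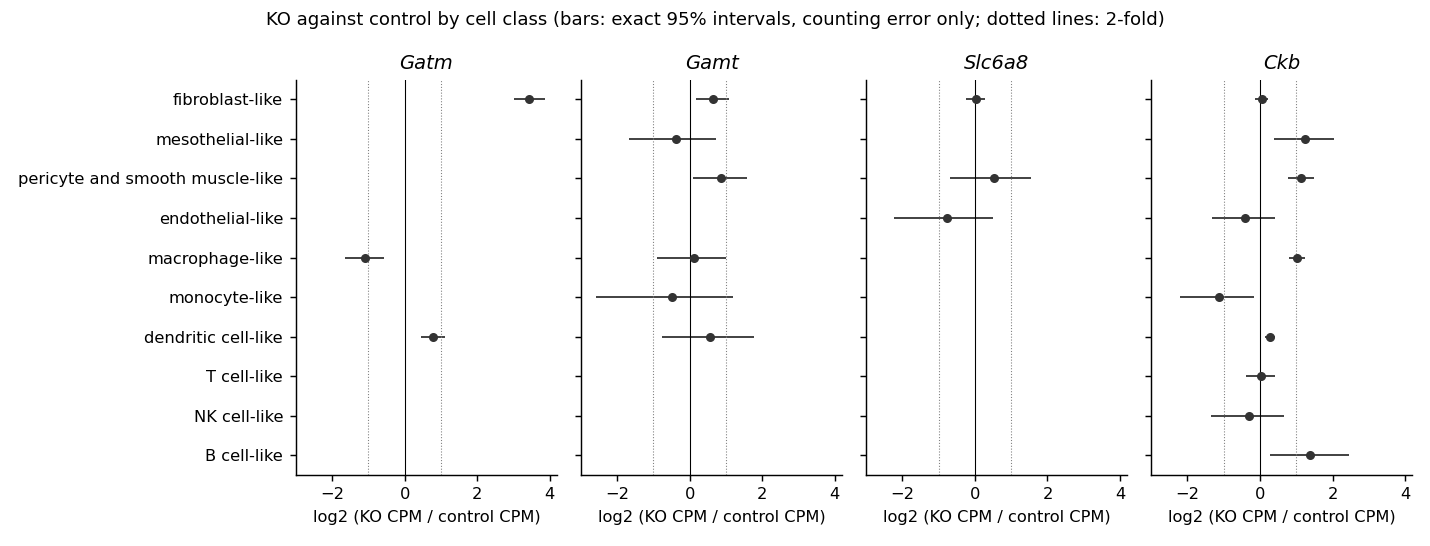
Log2 ratio of KO to control level by cell class for Gatm, Gamt, Slc6a8 and Ckb where both libraries had more than 3 UMIs, with exact 95% intervals and dotted lines at 2-fold. Gatm in fibroblast-like cells, at 3.43, is far to the right of every other point.

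Gamt, the methyltransferase of the second step, had another distribution. It was highest in pericyte and smooth muscle-like cells, at 58.3 CPM in the control (91 UMIs) and 106 CPM in the KO library (20 UMIs), in both libraries without overlap with the next class. Mesothelial-like cells followed, at 34.9 and 26.9 CPM. Monocyte-like, macrophage-like and fibroblast-like cells lay between 12.2 and 19.6 CPM in both libraries and could not be ordered beyond their intervals. The log2 ratio was 0.86 in pericyte and smooth muscle-like cells (0.09 to 1.57), which rests on 21 KO cells and was 2.26 with every cell at the same weight. Fibroblast-like cells held 125 and 62 Gamt UMIs, with a log2 ratio of 0.63 (0.17 to 1.08), with 368 of 10634 genes higher; at 2000 UMIs per cell it was 0.03 (-1.42 to 1.27), from 26 and 7 UMIs. The Mmd2 sub-cluster that held most Gatm had 35 and 23 Gamt UMIs, at 15.7 and 23.7 CPM, with intervals that overlapped those of the other deep sub-clusters.

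Slc6a8, the creatine importer, had most of its UMIs in fibroblast-like cells. Fibroblast-like cells held 69.2% of its control and 67.8% of its KO UMIs, at 51.3 CPM (509 UMIs) and 52.4 CPM (166 UMIs), a log2 ratio of 0.03 (-0.23 to 0.28). Pericyte and smooth muscle-like cells had 33.3 and 47.8 CPM and endothelial-like cells 29.5 and 17.4 CPM, with ratios of 0.52 (-0.69 to 1.55) and -0.76 (-2.23 to 0.50). Under the stricter cell filter the endothelial-like ratio was 1.11 (-0.44 to 2.68), from 8 and 9 UMIs, so no direction is read there. Monocyte-like, dendritic cell-like, T, B and NK cell-like cells were at or below 3.07 CPM in both libraries. Macrophage-like cells were at 3.62 and 1.54 CPM, but the unnamed Mmp12 cluster with 9 of the 10 macrophage markers was at 28.3 CPM in the control (52 UMIs) and 8.16 CPM in the KO library (4 UMIs), a log2 ratio of -1.79 (-3.72 to -0.35). Inside the fibroblast-like class the clusters went apart: the Fam150b cluster had 51.5 and 64.2 CPM (0.32, 0.01 to 0.62) and the Pi16 cluster 52.4 and 30.2 CPM (-0.79, -1.37 to -0.25). The highest level of all clusters was in an unnamed one led by Dcdc2a, Mt3 and Ccdc153 and also marked by Foxj1, a regulator of motile cilia (85 control and 27 KO cells), at 92.2 CPM in the control and 174 CPM in the KO library (0.92, 0.17 to 1.66). Another unnamed cluster, led by Tenm2, Ajap1 and Ptn, had 24.2 and 67.0 CPM (1.47, 0.47 to 2.45) from 21 and 18 UMIs.

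Ckb, the cytosolic creatine kinase, had the most UMIs of the 5 genes, 5848 from control and 2184 from KO cells. Among named classes it was highest in dendritic cell-like cells, at 528 and 641 CPM, with 87.3% and 85.9% of their cells holding a UMI. Pericyte and smooth muscle-like cells followed at 199 and 436 CPM and macrophage-like cells at 168 and 340 CPM, and the intervals of this pair overlapped in both libraries. T cell-like cells at 122 and 124 CPM and fibroblast-like cells at 100 and 104 CPM came next, again with overlapping intervals. The clusters spread more widely than the classes. The Foxj1-marked cluster was at 1385 and 1593 CPM, the Xcr1 dendritic cell-like cluster at 918 and 1079 CPM, and the Tenm2 cluster at 711 and 789 CPM, in the same order in both libraries and without overlap of neighbours. Among T cell-like cells, the cluster led by Cd163l1 and Trdc, a gamma-delta T cell receptor gene, was at 383 and 518 CPM, against 30.2 and 18.9 CPM in the cluster led by Cd8b1. Among fibroblast-like cells the Pi16 cluster was at 158 and 188 CPM (167 CPM without the Schwann-marked KO cells), and the Fam150b cluster, which held most Gatm, at 66.2 and 59.1 CPM.

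**Figure D5:**
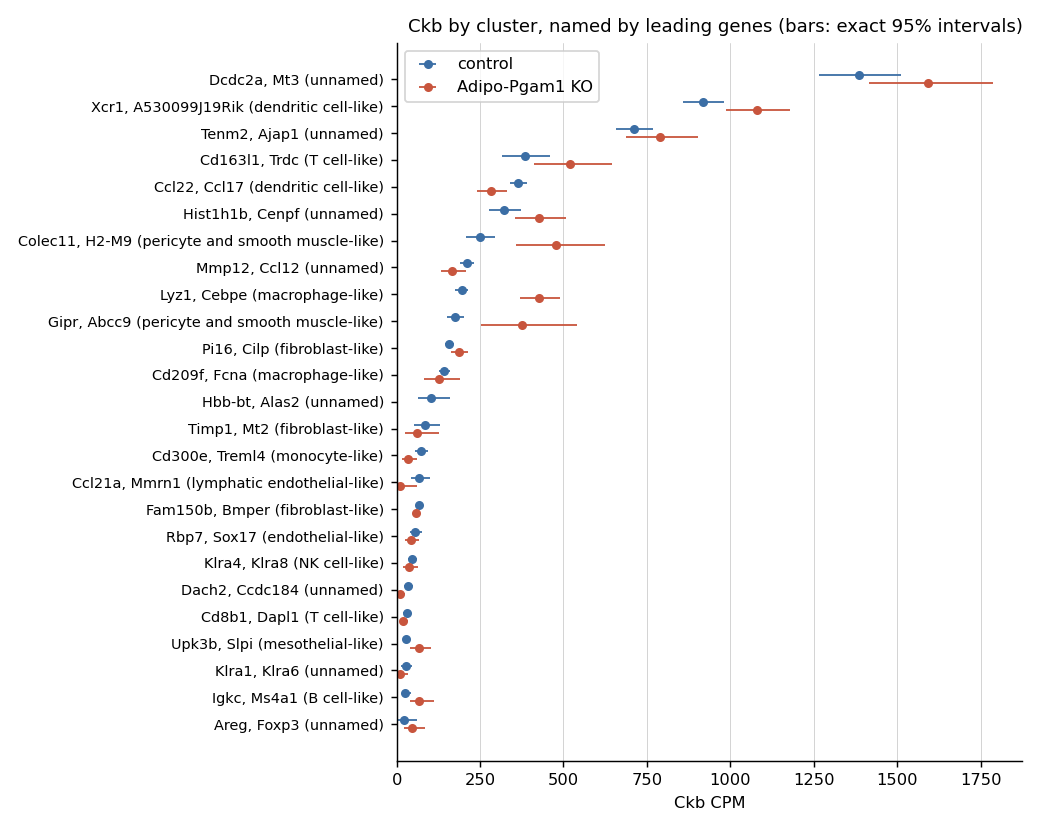
Ckb level (CPM, linear axis) in each of the 25 clusters, named by leading genes and, where given, class, in descending order of the control level; control in blue, Adipo-Pgam1 KO in red where the cluster had at least 6 KO cells, with exact Poisson 95% intervals. The 3 top clusters lie at 711 CPM or more in both libraries, and lymphocyte-like clusters other than the Trdc one lie near the bottom.

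Between libraries, the Ckb ratio in fibroblast-like cells (992 and 328 UMIs) was 0.05 on the log2 scale (-0.14 to 0.23), and its sign was kept in 9 of 15 alternatives. Without the Schwann-marked cells it was -0.07 (-0.26 to 0.12). Ckb was the 1 member at least 2-fold higher in each of 3 classes. In pericyte and smooth muscle-like cells the ratio was 1.13 (0.76 to 1.48; 3.06% of genes were higher and 11.3% lower by 2-fold or more), and its clusters gave 1.10 (0.48 to 1.67) and 0.94 (0.45 to 1.41). It was 0.52 with a looser cell filter and 0.59 with every cell at the same weight. In mesothelial-like cells it was 1.24 (0.39 to 2.05; 1.26% of genes were higher and 4.22% lower by 2-fold or more), from 40 and 20 UMIs, and 0.01 with every cell at the same weight. In macrophage-like cells it was 1.02 (0.79 to 1.23; 1.28% of genes) and came from the Lyz1 cluster, at 195 and 427 CPM (1.13, 0.88 to 1.38), while the Cd209f cluster was at 143 and 127 CPM (-0.17, -0.83 to 0.43). With cells classed by their own markers the macrophage-like ratio was 0.17 (-0.04 to 0.38). Monocyte-like cells were the 1 class with Ckb at least 2-fold lower, at 73.1 and 33.6 CPM (-1.12, -2.20 to -0.17; 5.52% of genes were lower and 3.26% higher by 2-fold or more), from 55 and 11 UMIs. In dendritic cell-like cells the ratio was 0.28 (0.15 to 0.41), with -0.36 (-0.62 to -0.12) in the Ccl22 cluster and 0.23 (0.07 to 0.39) in the Xcr1 cluster. The class value lies above both, as the Xcr1 cluster, with more Ckb, was a larger share of the KO cells. In NK, T and endothelial-like cells Ckb was the 1 member with at least 50 UMIs and was within 2-fold, where 0.767%, 0.945% and 1.46% of genes were higher by 2-fold or more and 2.74%, 2.07% and 3.49% lower by as much. B cell-like cells had 17 and 16 Ckb UMIs, a ratio of 1.36 (0.28 to 2.44) that was 0.28 with cells classed by their own markers. No member reached 50 UMIs in them, and 1.9% of genes were higher and 2.99% lower by 2-fold or more.

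Ckmt1, the mitochondrial creatine kinase, was rare, with 38 control and 8 KO UMIs. Mesothelial-like cells, which line the fat pad and were identified by Msln, Upk3b and Lrrn4, held 35 and 8 of them, at 24.9 and 26.9 CPM, a log2 ratio of 0.11 (-1.21 to 1.25). At this depth a change of up to about 2-fold in either direction was not detectable. Of the other 3 control UMIs, 1 was in a fibroblast-like cell and 2 in the Foxj1-marked cluster, at 5.59 CPM (0.677 to 20.2), an interval that overlapped that of the mesothelial-like cells (17.4 to 34.7). Mesothelial-like cells also had the second-highest Gamt level but 2 control and 0 KO UMIs of Gatm.

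Across the 11 named classes of the control library, the levels on the log2(CPM + 1) scale of Gatm and Ckb had a Pearson r of 0.62 and those of Gamt and Slc6a8 of 0.61, and the other 4 pairs with enough UMIs lay between -0.16 and 0.20. The points share 1 library and differ in depth, and the values are a description. The genes most like Gatm over these classes were Pdcd2l (0.92), Txn2 (0.92) and Borcs6 (0.90), which in the KO library had r of 0.14, 0.45 and 0.54 with it. For Gamt they were Plekhg3 (0.96), Acvr2b and Plcl1 (both 0.92), with 0.88, 0.48 and 0.89 in the KO library. For Slc6a8 they were Cdr2l (0.97), Stard13 and Sec13 (both 0.96), with 0.88, 0.87 and 0.63, and for Ckb Ccdc170 (0.88), Pi4k2a (0.86) and Rwdd2a (0.85), with 0.70, 0.58 and 0.26.

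The genes around creatine in the fibroblast-like cells were taken from lists chosen by function, counting genes with at least 10 UMIs in both libraries together. Of all 12874 such genes, 3.94% were 2-fold or more higher in KO cells and 3.34% 2-fold or more lower, with a median log2 ratio of -0.09. In the arginine and ornithine list 7 of 8 genes were measured, with a median of 0.05. Only Arg1, the arginase that splits arginine, was past 2-fold in it, from 10 and 7 UMIs with an interval of -0.50 to 2.67. Oat, which uses up ornithine, a product of GATM, was at 259 and 287 CPM (0.15, 0.04 to 0.26), the arginine importer Slc7a1 at 31.3 and 21.1 CPM (-0.56, -0.97 to -0.18), and Odc1, which makes putrescine from ornithine, at 49.1 and 38.8 CPM (-0.34, -0.64 to -0.05). In the glycine list 6 of 7 were measured, with a median of -0.30 and none past 2-fold. Shmt2, which makes glycine from serine in mitochondria, had a ratio of -0.69 (-1.33 to -0.09) and the glycine transporter Slc6a9 one of -0.52 (-0.99 to -0.07).

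The methyl donor list had 7 of 9 genes measured and a median of 0.25, with 1 gene past 2-fold. That gene, Ahcy, which clears S-adenosylhomocysteine after methylation, had 15 and 13 UMIs (1.44, 0.25 to 2.61), and Mat2a, which makes S-adenosylmethionine, was at 264 and 213 CPM (-0.31, -0.43 to -0.18). Of the other creatine kinases, Ckm and Ckmt2 had no UMI in fibroblast-like cells of either library. The phosphatase gene Alpl had 242 and 71 UMIs there (-0.12, -0.53 to 0.26). In endothelial-like cells Alpl was at 167 and 74.5 CPM (-1.16, -1.79 to -0.58), in a class where 3.49% of genes were at least 2-fold lower. The list of adenylate kinases and mitochondrial ADP and ATP exchange had 9 of 9 genes measured, a median of -0.04 and none past 2-fold. Its member farthest from 0 with over 50 UMIs was Ak3, the adenylate kinase of the mitochondrial matrix, at 107 and 74.8 CPM (-0.52, -0.73 to -0.32). Of 11 beige markers 5 were measured, with a median of 0.23, and 2 were at least 2-fold higher and none 2-fold lower once counts under 3 were set to 3. This list was the study's choice of PCR primers, made for these mice and described for RNA from tissue samples, whereas most mature adipocytes are lost here. The paper also describes beige genes as higher in the KO cells of its own fibroblast cluster rich in adipocyte markers. Which genes those were was not compared here. Ppargc1a had 12 and 16 UMIs (2.06, 0.89 to 3.27) and Prdm16, a regulator of brown and beige fat, 31 and 22 (1.15, 0.29 to 1.99). Tmem26 had 8 and 3 UMIs (0.23, -2.32 to 2.29), Mtus1 348 and 109 (-0.03, -0.35 to 0.29) and Egln3 14 and 2 (-1.16, -4.34 to 0.96, or -0.58 with the KO count set to 3), and Ucp1 had none in either library. All 9 stress genes were measured, of which Fos (1.18), Atf3 (1.95) and Fosb (129 against 365 CPM) were at least 2-fold higher, and their part in the other ratios was not tested.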

How the data were processed

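Single-cell RNA sequencing (10x Genomics 3′ v3 chemistry) of gWAT SVF was used, with 1 library from control and 1 from Adipo-Pgam1 KO mice. The authors made the deposited counts, whole numbers of UMIs per gene and barcode without normalization, with Cell Ranger 3.0.1 on mm10, and the submitters' notes also name Seurat 3.1.5 and R 4.0.1. Of 28692 gene IDs, 28339 were found in GENCODE M21. The 5 genes and the gene lists were chosen with earlier results of these data known.

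Barcodes with 500 or more genes and no more than 10% mitochondrial UMIs entered the analysis, and the highest Scrublet scores were removed as doublets, 0.8% per 1000 barcodes (265 control and 21 KO cells). Leiden clustering (resolution 0.5) used 2000 variable genes, without the 63 listed genes, 30 components and 20 neighbours. A cluster took a class name when its mean marker z-score was above 0.5 and 0.75 above the next class, and at least 3 markers were found in 10% of its cells. A cluster with more markers of another class among its top 10 genes, or led by Foxp3 or Cd4 against its name, stayed unnamed. So did a cluster that matched erythroid cells best, and one far shallower than its library with no own marker among its top 10 genes. Parts of this naming rule, the sub-clusters and the description of single cells were chosen after seeing the data, and names may differ from the study's.

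UMIs were summed per class. Poisson, Clopper-Pearson and conditional binomial 95% intervals cover counting error only. Counts of genes past 2-fold used at least 50 UMIs, with counts under 3 set to 3. The genes named by rule are the 5 genes, Pgam1, list genes with at least 10 UMIs in fibroblast-like cells and the 3 genes most correlated with each member; cluster-leading genes, Apoe and the genes of the 7 cells were named after their values were seen. The ratio and interval steps were tested on simulated sums with counting error only, and thinning was checked for depth. Doublet removal, clustering, class naming and spread between cells were not tested in this way. A first set of 15 alternatives changed cell filters, doublets, resolution, clustering genes, class names, scaling, cell weight, depth, the count minimum and the cells entering the Gatm ratio, and 2 were added after seeing the data. Python 3.11.15, scanpy 1.11.5, scipy 1.17.1, leidenalg 0.10.2 and, for scaling factors, edgeR 4.0.16 were used.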

Additional observations from a re-analysis of the deposited data

How the results depend on the processing

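The Gatm ratio in fibroblast-like cells stayed above 0 under all 15 alternatives run for it, from 2.09 to 4.09 on the log2 scale against 3.43. It moved beyond its counting interval under 4 of them: 2.40 with classes from each cell's own markers, 2.68 with every cell at the same weight, 2.09 without the 10 cells with the most Gatm in each library, and 4.09 with only marker-clean cells, an alternative added after seeing the data. Genes at least 2-fold higher in fibroblast-like cells numbered 150, against 53 with each cell thinned to 2000 UMIs, 89 with only marker-clean cells and 297 with a minimum of 20 UMIs. Genes at least 2-fold lower numbered 185, against 314 with own-marker classes and 429 with a minimum of 20 UMIs; that these counts rise at a lower minimum follows from more genes being counted. Of 228 values for the other 22 class ratios, 200 stayed within the counting interval and 28 moved, and no ratio past 2-fold changed sign. Ratios within 2-fold that changed sign under some alternative were those of Ckb in fibroblast-like, T cell-like and endothelial-like cells, Slc6a8 in fibroblast-like, endothelial-like and pericyte and smooth muscle-like cells, and Gamt in macrophage-like cells. The Ckb ratio in endothelial-like cells was 1.08 under the stricter cell filter, against -0.42. The Gatm ratio in dendritic cell-like cells ran from 0.03 to 0.86. Where a move came from a changed set of cells, its cause was not tested. TMM and median-of-ratios factors raised log2 ratios by 0.02 to 0.13, depending on the class. No paired analysis was possible because each genotype had 1 library. That single library, and under 30 KO cells in the mesothelial, monocyte and pericyte classes, limit every comparison.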
